A study of Mus musculus with 15 samples.

Results

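The genes of the IL-2 receptor and its first signalling steps were followed in splenic regulatory T (Treg) cells that lack Helios, Eos or both: the receptor chains Il2ra, Il2rb and Il2rg, the Janus kinases Jak1 and Jak3, and the transcription factors Stat5a and Stat5b. These 7 genes were taken by symbol from the platform annotation, with the brightest probe set standing for a gene. A probe set with 1 symbol was found for 5 of them, Il2ra, Il2rb, Jak1, Stat5a and Stat5b, out of 19938 genes with such a probe set on the array. The probe set listed for Jak3 is listed for Insl3 as well, so its signal is given separately, and Il2rg was not analysed here. All 5 passed the brightness filter that left 10964 genes for testing, with every group mean above it: the lowest was 7.07, for Stat5a in WT 4 to 6, against a filter at 4.96 on the log2 scale.

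The study profiled CD4+CD25+ cells sorted from mouse spleen on 15 single-colour arrays, 3 from Ikzf2-/- mice (no Helios), 3 from Ikzf4-/- mice (no Eos), 3 from dKO mice (neither factor) and 6 from WT mice. The labels name no treatment, strain, sex, age or construction of the alleles. Eif2s3y, a Y-linked gene, had signals of 7.94 to 8.81 in dKO 2 and 3, Ikzf4-/- 3 and WT 3, against 2.87 to 3.09 in the other 11 arrays, so it was high in 2 of 3 dKO arrays and in 1 of 3 WT arrays of set 1. With this signal as a covariate no member passed in any comparison. Nor do they tie arrays to individual mice, so the spread behind each p-value may be technical in part. The arrays were handled as 2 sets, which the labels do not state but which differ in signal level: set 1 holds dKO, Ikzf4-/- and WT 1 to 3, and set 2 holds Ikzf2-/- and WT 4 to 6. Knockouts were set against the WT arrays of the same set only, and values are log2 signals, on which a difference of 1 is a doubling.

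Interleukin-2 is the cytokine that Treg cells depend on for survival and for holding Foxp3 expression, and they take it from conventional T cells because they make hardly any themselves. The alpha chain (CD25, from Il2ra) raises the affinity of the receptor, while the beta chain (CD122, from Il2rb) and the common gamma chain (from Il2rg) carry the signal. JAK1 binds the beta chain and JAK3 the gamma chain; once activated they phosphorylate the receptor and STAT5A and STAT5B, which enter the nucleus and switch on target genes, among them feedback inhibitors such as Cish and the SOCS genes. CD25 was itself a marker of the sort, so cells low in this protein were left out before RNA was made, and a comparison of Il2ra between groups is made among cells already chosen for it.

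Promoter windows were examined because Helios and Eos, like Ikaros, bind DNA at a GGGAA core, and STAT5 at TTCNNNGAA. RefSeq windows (GRCm38.p6, 250 bases before to 50 after an annotated start) were found for 6 of the 7 genes, 8 windows in all, since Stat5a and Stat5b have several starts. The letters GGGAA, searched on both strands, stood in 4 of these 8 windows, in Il2ra, Il2rg, Stat5a and Stat5b, against 62.7% of 32851 windows of the same length. The letters TTCNNNGAA, which read the same on both strands, stood in 0 of the 8 windows, against 8.3% of all windows. A match describes the letters and is not shown to be a binding site, and a window without a match says nothing on the factor. The Il2ra window (chr2:11642542-11642841, plus strand) is printed as the promoter of the receptor chain by which the cells were sorted, with GGGAA in capitals. The window of Cish, a feedback inhibitor used as a readout of STAT5 (chr9:107296409-107296708, plus strand), is printed with its 2 matches to TTCNNNGAA in capitals, at positions 1 and 12 counted from the annotated start.
Il2ra: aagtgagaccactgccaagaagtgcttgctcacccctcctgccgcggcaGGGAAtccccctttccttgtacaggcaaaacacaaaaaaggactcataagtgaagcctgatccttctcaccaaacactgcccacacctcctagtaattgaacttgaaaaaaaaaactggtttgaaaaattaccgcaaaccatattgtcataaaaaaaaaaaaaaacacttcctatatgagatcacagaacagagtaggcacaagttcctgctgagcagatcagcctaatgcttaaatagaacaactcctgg
Cish: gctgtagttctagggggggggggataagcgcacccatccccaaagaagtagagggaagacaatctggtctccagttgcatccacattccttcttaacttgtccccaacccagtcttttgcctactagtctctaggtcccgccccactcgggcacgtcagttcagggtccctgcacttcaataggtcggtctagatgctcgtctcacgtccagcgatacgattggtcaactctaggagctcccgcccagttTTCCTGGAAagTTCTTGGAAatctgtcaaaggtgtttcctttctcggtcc

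Some arrays stood apart, and they bear on the results below. In set 1, WT 1 had a mean log2 signal of 6.68 over 12 B cell markers, against 4.55 to 4.73 in the other set 1 arrays. In set 2, Ikzf2-/- 3 had 7.52 and Ikzf2-/- 1 had 5.66, against 4.94 in Ikzf2-/- 2 and 5.07 to 5.27 in WT 4 to 6. Over 7 neutrophil markers the mean was 6.55, 5.99 and 8.71 in Ikzf2-/- arrays 1 to 3, all above the 4.97 to 5.54 of WT 4 to 6. Of 6 such genes tested, 5 had an unadjusted p under 0.05 in limma, as had 16.4% of all tested genes, and 0 passed. Ltf and Mpo met the filter only through their Ikzf2-/- means, so their entry into this count was not independent of the difference. The B cell and neutrophil markers thus differ between the same groups as the Ikzf2-/- changes given below, and their part in those changes was not tested. Ikzf2-/- 2 had the lowest mean of 10 T cell and Treg markers, 9.84 against 10.12 to 10.33 in the other Ikzf2-/- arrays and 10.20 to 10.24 in WT 4 to 6. These markers include Il2ra, Ikzf2 and Ikzf4. In Ikzf2-/- 2, Cd3e, Cd4, Foxp3, Ctla4, Tnfrsf18, Il2ra and Ikzf2 were the lowest of set 2. Cd3g was the highest there, at 11.26 against 11.05 to 11.19 in WT 4 to 6. Cd3d (11.04) and Ikzf4 (7.88) lay within the range of WT 4 to 6. The Cd8b1 signal of Ikzf2-/- 2 was 7.31, against 6.06 to 6.12 in the other 5 arrays of set 2. Cd8a, the other CD8 marker, did not stand apart there. It read 4.68 in Ikzf2-/- 2, below the filter and within the 4.09 to 4.74 of the other set 2 arrays. Cd3d, Cd3e, Cd3g, Cd4, Foxp3, Ctla4 and Tnfrsf18, the markers that define these cells, were all above the filter in every group. The Ikzf2 signal was 10.06, 9.14 and 9.22 in Ikzf2-/- arrays 1 to 3, against 10.25, 10.38 and 10.38 in WT 4 to 6, and its change of -0.86 (SE 0.20) had an adjusted p of 0.088 in limma, above the threshold. In dKO arrays it was 10.11, 10.16 and 10.59, against 10.46, 10.74 and 10.76 in WT 1 to 3. Ikzf4 stood at 0.21 (SE 0.10) in Ikzf4-/- against WT, not lower. The position of these probes on the altered alleles was not analysed here, so the signals do not check the labels.

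No member passed the test in any of the 6 comparisons made, limma calling 0 of 5 each time at an adjusted p of 0.05 over all 10964 genes. Also at an unadjusted p under 0.05 the count was 0 of 5 in each. For comparison, limma called 0.0638% of all genes in Ikzf2-/- against WT (7 genes), 0.0638% in dKO against WT (7), 0% in Ikzf4-/- against WT (0) and 0.0274% in dKO against Ikzf4-/- (3), so the members' count of 0 lies near the background. Without adjustment, 16.4%, 4.38%, 2.18% and 3.48% of all genes had a p under 0.05 in these comparisons. In bulk RNA, fewer cells of a type and less RNA per cell cannot be told apart.

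Il2ra, the CD25 chain, read 10.83, 10.23 and 10.43 in Ikzf2-/- arrays 1 to 3, against 10.80, 10.74 and 10.64 in WT 4 to 6. Ikzf2-/- 2 and 3 lay below every WT array of the set, and Ikzf2-/- 1 lay above them, so the groups overlapped. The change was -0.23 (SE 0.12, adjusted p = 0.371 in limma), a ratio of 0.854 with a 95% interval of 0.714 to 1.02. This value turned on how the Ikzf2-/- arrays were counted: without Ikzf2-/- 1 it was -0.39 and passed (limma, adjusted p = 0.0364), without Ikzf2-/- 2 it was -0.096 (adjusted p = 0.601), and without Ikzf2-/- 3 it was -0.20 (adjusted p = 0.523). With array weights, which gave Ikzf2-/- 2 a weight of 0.127 and Ikzf2-/- 3 a weight of 0.365, the change was -0.001 (adjusted p = 0.998). Ikzf2-/- 3 is the array with the highest B cell marker mean and Ikzf2-/- 2 the one with the lowest T cell and Treg marker mean, and their part in the Il2ra value was not tested beyond these values. Il2ra is itself among the T cell and Treg markers, so that mean is not separate from the Il2ra value.

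In set 1 the Il2ra signals of the knockouts were close to one another. They were 11.00, 10.97 and 10.99 in dKO cells, and 10.99, 10.99 and 11.03 in Ikzf4-/- cells, against 10.87, 11.10 and 11.02 in WT 1 to 3. The WT arrays enclosed all 6 knockout arrays. The change was -0.01 in dKO (ratio 0.993, 95% interval 0.83 to 1.19) and 0.01 in Ikzf4-/- (ratio 1.01, 95% interval 0.842 to 1.2). These intervals rest on a spread shared with the more variable Ikzf2-/- arrays. Fitted to the 9 arrays of set 1 alone they were 0.894 to 1.1 in dKO and 0.906 to 1.12 in Ikzf4-/-. Pairs of set 1 arrays had equal values in 2286 probe sets on average, against 34.4 within set 2. Il2ra was one such case, at 10.99436 in both Ikzf4-/- 1 and Ikzf4-/- 2. Whether equal values narrow the set 1 intervals was not tested.

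Il2rb encodes the signalling beta chain, which the IL-2 and IL-15 receptors share. It read 11.14, 10.24 and 11.08 in Ikzf2-/- arrays 1 to 3, against 10.83, 10.96 and 10.81 in WT 4 to 6. Ikzf2-/- 1 and 3 lay above every WT array of the set and Ikzf2-/- 2 far below them, and the change with all arrays was -0.04 (SE 0.17, adjusted p = 0.93). Leaving out Ikzf2-/- 2 turned the direction, to 0.24 (95% interval 0.062 to 0.43), still without passing (limma, adjusted p = 0.119), while it was -0.21 without Ikzf2-/- 1 and -0.17 without Ikzf2-/- 3. In set 1 the signals were 11.55, 11.57 and 11.44 in dKO cells and 11.45, 11.68 and 11.52 in Ikzf4-/- cells, against 11.55, 11.63 and 11.54 in WT 1 to 3. All 3 groups overlapped, with a change of -0.05 in dKO (ratio 0.965, 95% interval 0.743 to 1.25) and -0.02 in Ikzf4-/- (ratio 0.983, 95% interval 0.758 to 1.28).

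**Figure D1:**
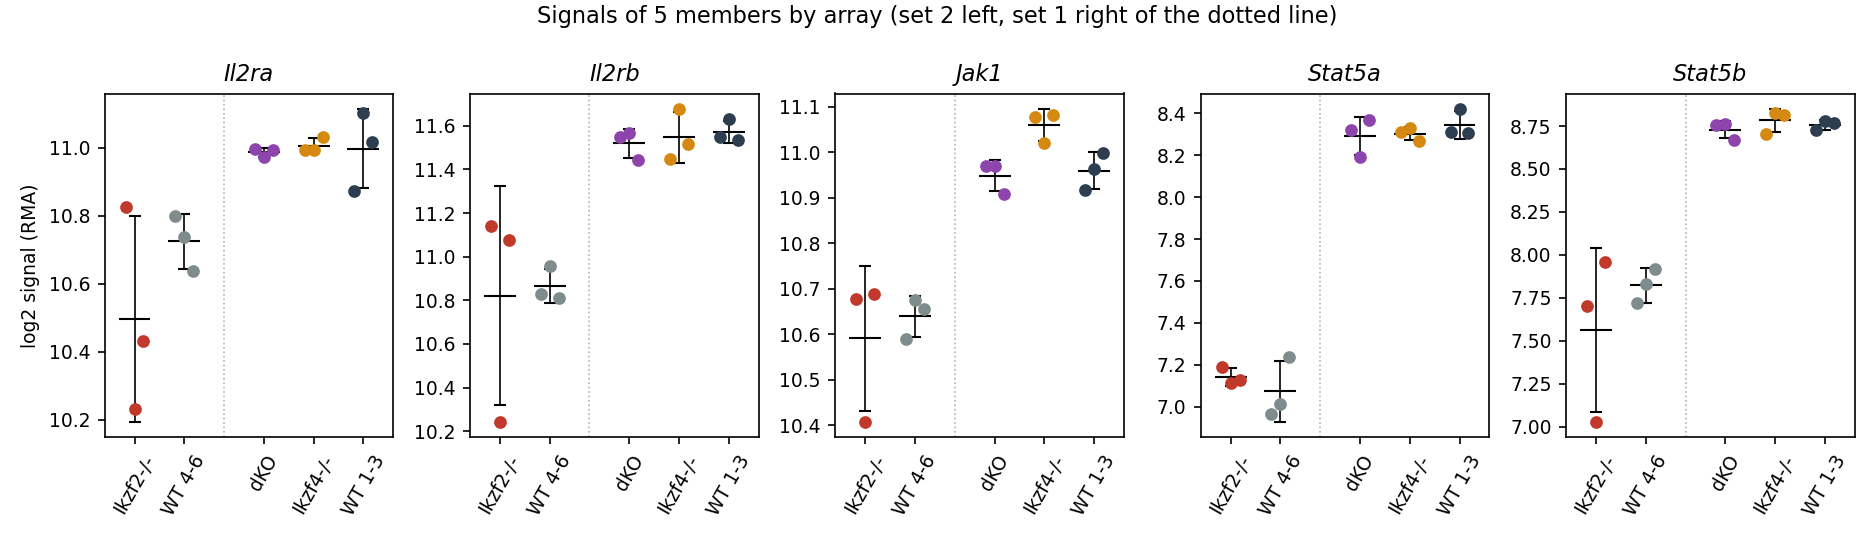
Log2 signal (vertical axis, a scale of its own in each panel) of Il2ra, Il2rb, Jak1, Stat5a and Stat5b in each of the 15 arrays, with the mean (line) and SD (bars) of 3 arrays a group; set 2 is left and set 1 right of the dotted line. Ikzf2-/- 2, the middle red point, was the lowest array of set 2 for Il2ra, Il2rb, Jak1 and Stat5b, while the groups of set 1 lay close together.

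Jak1 encodes the kinase bound to the beta chain. It read 10.68, 10.41 and 10.69 in Ikzf2-/- arrays 1 to 3, against 10.59, 10.68 and 10.65 in WT 4 to 6, and Ikzf2-/- 2 lay below every WT array of the set while the other Ikzf2-/- arrays lay at or just above the highest. The change was -0.05 (SE 0.08, adjusted p = 0.82), and 0.043 without Ikzf2-/- 2. In set 1, Jak1 read 11.08, 11.02 and 11.08 in Ikzf4-/- cells, against 10.92, 10.96 and 11.00 in WT 1 to 3. All 3 Ikzf4-/- arrays were above all 3 WT arrays, the one member of 5 whose groups did not overlap in this comparison, where 3.62% of tested genes were higher without overlap. The change was 0.10 (SE 0.08, ratio 1.07, 95% interval 0.95 to 1.21) and did not pass (limma, adjusted p = 1). Fitted to set 1 alone, the 95% interval of the ratio was 0.985 to 1.17. The adjusted p was 0.328 to 1 over the alternatives run. These include the fit with all 6 WT arrays pooled, where the change was 0.26 and the difference between the sets is counted in.

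In dKO cells Jak1 stood at 10.97, 10.97 and 10.91, which lay below all 3 Ikzf4-/- arrays and overlapped with WT 1 to 3. Against Ikzf4-/- the change was -0.11 (SE 0.08, ratio 0.926, 95% interval 0.821 to 1.04, limma adjusted p = 1), in a comparison where 4.19% of tested genes were lower without overlap. Fitted to set 1 alone, the interval for dKO against Ikzf4-/- was 0.85 to 1.01. Against WT the change was -0.01 (ratio 0.993, 95% interval 0.88 to 1.12). Both comparisons share the dKO arrays, and the Jak1 differences of Ikzf4-/- from WT and from dKO share the Ikzf4-/- arrays, so they are not separate observations.

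The probe set listed for both Jak3, the kinase of the common gamma chain, and Insl3 cannot be assigned to either gene. It read 7.91, 7.64 and 7.93 in Ikzf2-/- arrays 1 to 3, against 7.79, 7.91 and 7.80 in WT 4 to 6, a difference of -0.007. In set 1 it read 8.56, 8.60 and 8.46 in dKO cells and 8.18, 8.32 and 8.42 in Ikzf4-/- cells, against 8.58, 8.46 and 8.46 in WT 1 to 3. All Ikzf4-/- arrays were below all WT 1 to 3 and all dKO arrays (differences of -0.19 for Ikzf4-/- against WT, where 2.92% of tested genes were lower without overlap, and 0.23 for dKO against Ikzf4-/-, where 4.09% were higher without overlap); these are descriptions without a test, since the probe set was left out of the fit.

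Stat5a and Stat5b are neighbouring genes on chromosome 11 that encode closely related factors. Stat5b read 7.70, 7.03 and 7.96 in Ikzf2-/- arrays 1 to 3, against 7.72, 7.83 and 7.92 in WT 4 to 6. Ikzf2-/- 2 was again the low array, and the other Ikzf2-/- arrays lay just below and just above the range of the WT arrays. The change of -0.26 (SE 0.17, ratio 0.835, 95% interval 0.652 to 1.07, adjusted p = 0.47) was 0.0061 without Ikzf2-/- 2 and -0.46 without Ikzf2-/- 3 (adjusted p = 0.211). In set 1 the Stat5b signals were 8.76, 8.76 and 8.67 in dKO cells and 8.71, 8.83 and 8.81 in Ikzf4-/- cells, against 8.72, 8.78 and 8.77 in WT 1 to 3. The groups overlapped, with a change of -0.03 in dKO (ratio 0.981, 95% interval 0.766 to 1.26) and 0.03 in Ikzf4-/- (ratio 1.02, 95% interval 0.795 to 1.3).

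Stat5a differed from the other members in that Ikzf2-/- 2 was not the low array. Its signal was 7.19, 7.11 and 7.12 in Ikzf2-/- arrays 1 to 3, against 6.97, 7.01 and 7.24 in WT 4 to 6, where WT 6 was the highest of the set. The change of 0.07 (SE 0.08, ratio 1.05, 95% interval 0.926 to 1.19, adjusted p = 0.734) was 0.15 without WT 6 and 0.016 without WT 4. In set 1 Stat5a read 8.32, 8.19 and 8.37 in dKO cells and 8.31, 8.33 and 8.27 in Ikzf4-/- cells, against 8.31, 8.42 and 8.31 in WT 1 to 3. The groups overlapped again, with a change of -0.05 in dKO (ratio 0.965, 95% interval 0.851 to 1.09) and -0.04 in Ikzf4-/- (ratio 0.972, 95% interval 0.858 to 1.1).

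**Figure D2:**
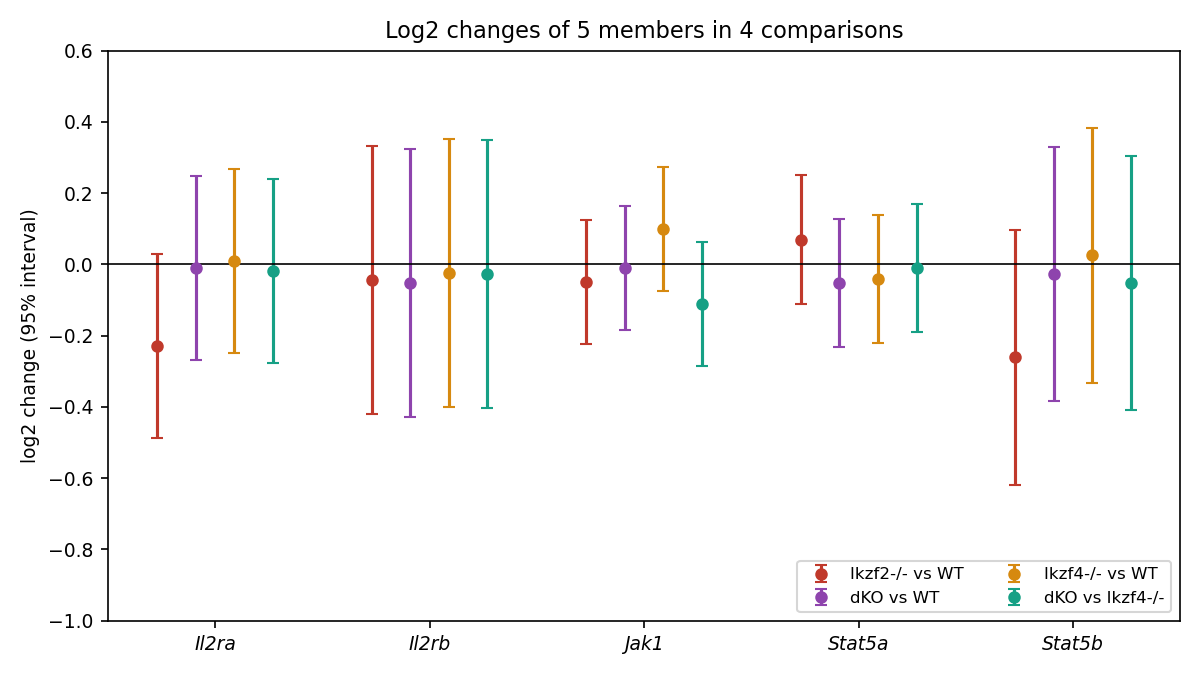
Log2 change (vertical axis) of Il2ra, Il2rb, Jak1, Stat5a and Stat5b in 4 comparisons, as points with 95% intervals from the limma fit to all 15 arrays. Every interval includes 0, and the points farthest below it are Stat5b (-0.26) and Il2ra (-0.23) in Ikzf2-/- against WT.

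Over the 5 members the median change was -0.049 in Ikzf2-/- against WT, -0.028 in dKO against WT, 0.009 in Ikzf4-/- against WT and -0.027 in dKO against Ikzf4-/-. The medians over all tested genes were 0.020, 0.0039, 0.0060 and -0.0015. All 5 changes were negative in dKO against WT, between -0.05 and -0.01, which is within the spread of the arrays. Of all tested genes, 51.8% had a positive change in that comparison. The interval fitted to set 1 alone did not reach below a ratio of 0.859 (Il2rb) or above 1.1 (Il2ra) for any of the 5 in dKO against WT. In Ikzf2-/- against WT, with set 2 alone, the intervals were 0.658 to 1.11 for Il2ra, 0.667 to 1.41 for Il2rb and 0.801 to 1.17 for Jak1. They were 0.873 to 1.26 for Stat5a and 0.581 to 1.2 for Stat5b. For each gene, ratios within its own interval are not excluded by these 6 arrays.

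Whether the effect of Helios loss differs with Eos was read from Helios loss without Eos (dKO minus Ikzf4-/-) minus Helios loss with Eos (Ikzf2-/- minus WT 4 to 6). The difference was 0.21 for Il2ra (SE 0.17, 95% interval of the ratio 0.897 to 1.49, adjusted p = 0.896 in limma) and 0.21 for Stat5b (SE 0.23, 95% interval of the ratio 0.814 to 1.64, adjusted p = 0.932). It was 0.02 for Il2rb, -0.06 for Jak1 and -0.08 for Stat5a. These values rested on single Ikzf2-/- arrays: Il2ra lay between 0.076 (without Ikzf2-/- 2) and 0.37 (without Ikzf2-/- 1) and at -0.013 with array weights, Stat5b between -0.059 (without Ikzf2-/- 2) and 0.40 (without Ikzf2-/- 3), and Il2rb between -0.27 (without Ikzf2-/- 2) and 0.18 (without Ikzf2-/- 1).

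What Eos loss added in cells without Helios was read across the sets, as the dKO change minus the Ikzf2-/- change, each against WT of its own set. It was 0.22 for Il2ra (SE 0.17, 95% interval of the ratio 0.903 to 1.5, adjusted p = 0.831) and 0.23 for Stat5b (SE 0.23, 95% interval of the ratio 0.828 to 1.67, adjusted p = 0.881), and -0.01 for Il2rb, 0.04 for Jak1 and -0.12 for Stat5a. With 1 array left out, Il2ra lay between 0.085 (without Ikzf2-/- 2) and 0.38 (without Ikzf2-/- 1), and array weights gave -0.021. Without Ikzf2-/- 2, Stat5b stood at -0.034, Il2rb at -0.30 and Jak1 at -0.054. Limma called 0 of 10964 genes in the first of these comparisons and 0 in the second (6.29% and 7.3% at an unadjusted p under 0.05), and none of the 5 members passed. A fit with another WT group differed: with all 6 WT arrays pooled into 1 group, limma called all 5 members and 3656 genes in the dKO change minus the Ikzf2-/- change. In that fit the WT group cancels, so that dKO cells of set 1 are set directly against Ikzf2-/- cells of set 2 and the difference between the sets is counted in. The differences were then 0.49 for Il2ra, 0.70 for Il2rb, 0.36 for Jak1, 1.15 for Stat5a and 1.17 for Stat5b, with adjusted p between 0.0323 and 0.0484, and those of Il2rb and Stat5a had the opposite sign to the within-set values.

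Levels could be ordered across genotypes only within a set. In set 1 the group means of Il2ra spanned 10.99 to 11.01, those of Il2rb 11.52 to 11.57, those of Stat5a 8.29 to 8.35 and those of Stat5b 8.73 to 8.78, with neighbours in the order closer than their spread. Jak1 alone had a group, Ikzf4-/- at 11.06 ± 0.03 (SD, n = 3), whose arrays did not overlap with dKO at 10.95 ± 0.03 (SD, n = 3) or with WT 1 to 3 at 10.96 ± 0.04 (SD, n = 3). Between the sets, all 6 set 2 arrays lay below all 9 set 1 arrays for each of the 5 members, as for 40.4% of tested genes. WT 4 to 6 minus WT 1 to 3 was -1.27 for Stat5a, -0.93 for Stat5b, -0.71 for Il2rb, -0.32 for Jak1 and -0.27 for Il2ra, where the median over tested genes was -0.38. Genotype is the same in these WT groups, so a level in Ikzf2-/- cells cannot be set against one in dKO or Ikzf4-/- cells directly.

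For 4 of the 5 members the Ikzf2-/- arrays differed among themselves more than those of any other group. The spread was wider over all genes too: the median SD of tested genes was 0.193 in Ikzf2-/-, against 0.092 to 0.110 in the other groups. The SD over 3 arrays was 0.50 for Il2rb, 0.48 for Stat5b, 0.30 for Il2ra and 0.16 for Jak1 in Ikzf2-/- cells, against 0.08, 0.10, 0.08 and 0.04 in WT 4 to 6. Stat5a had an SD of 0.04 in Ikzf2-/- cells, against 0.15 in WT 4 to 6. Ikzf2-/- 2 was the lowest of the 6 set 2 arrays for 4 of the 5 members, as it was for 33.6% of all tested genes, and it was the highest for 22%.

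**Figure D3:**
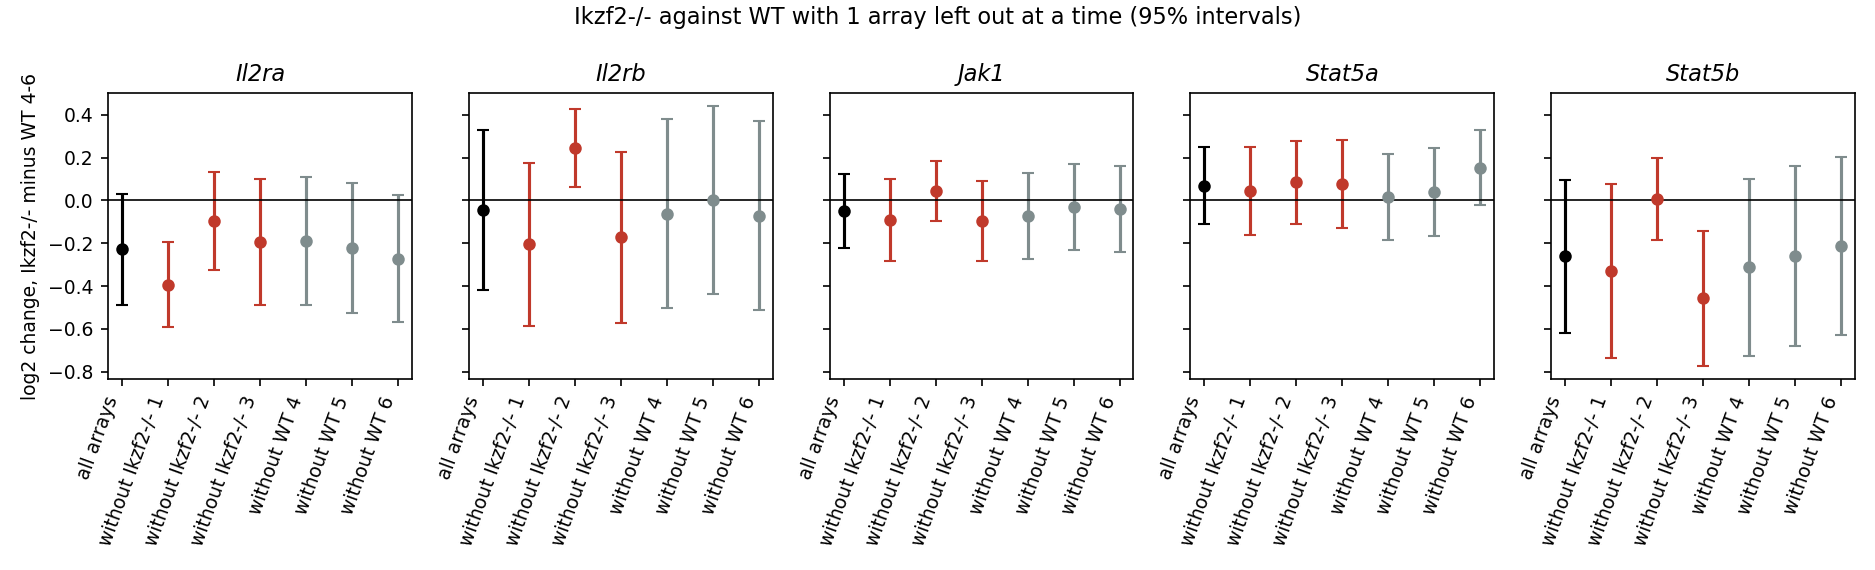
Log2 change of each member in Ikzf2-/- against WT 4 to 6 (vertical axis, with 95% intervals) with all arrays (black) and with 1 Ikzf2-/- array (red) or 1 WT array (grey) of the set left out. Without Ikzf2-/- 2 the value moved to 0.24 for Il2rb and 0.0061 for Stat5b, while without Ikzf2-/- 1 Il2ra stood at -0.39.

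Likeness between genes was read over the 15 arrays, each taken minus the mean of the WT arrays of its set. Among the members, Jak1 and Stat5b had r = 0.823, Il2rb and Stat5b 0.805 and Il2rb and Jak1 0.691. Il2ra had 0.602 with Il2rb, 0.619 with Jak1 and 0.618 with Stat5b, and Stat5a had between -0.189 and 0.08 with the other 4. Many other genes were as close: among tested genes Jak1 ranked 378 and Il2rb 471 for Stat5b, and Stat5b ranked 72 for Jak1 and 534 for Il2rb. The r values lean on few arrays: without Ikzf2-/- 2 and Ikzf4-/- 3, the arrays farthest from the Jak1 median, Jak1 and Stat5b had r = 0.327. Il2rb and Stat5b had r = -0.127 without Ikzf2-/- 2 and 3, and 0.643 without Ikzf2-/- 1 and 2. Closest to Il2ra were Trip12, a ubiquitin ligase gene, Lrba, which encodes a protein that protects CTLA4 from degradation, and Zfp266 (r = 0.957, 0.954 and 0.952). Without Ikzf2-/- 2 and 3 these were 0.811, 0.675 and 0.639 over 13 arrays. Closest to Il2rb were Zfp36l1, an mRNA decay factor gene, the tubulin gene Tubb5 and Pigt (0.981, 0.977 and 0.959), which stood at 0.917, 0.902 and 0.875 without Ikzf2-/- 1 and 2. For Jak1 they were AW549877, the interleukin-6 receptor gene Il6ra and Lrrc8c (0.907, 0.900 and 0.898), which stood at 0.679, 0.612 and 0.786 without Ikzf2-/- 2 and Ikzf4-/- 3. For Stat5a they were Actc1, Zfp369 and Polr3gl (0.835, 0.815 and 0.750), at 0.773, 0.766 and 0.724 without Ikzf2-/- 1 and WT 6. For Stat5b they were Atxn7l3, Unk and Rbck1 (0.957, 0.953 and 0.950), at 0.620, 0.582 and 0.205 without Ikzf2-/- 2 and 3. These are descriptions over arrays that share their set and their normalization.

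The rest of the pathway was followed in further lists, and no gene of these lists passed the test over all genes in any of the 4 comparisons between groups. The lists share genes and are not separate readouts. The member Il2ra is also listed as induced through STAT5. Cish, Socs1, Socs2 and Socs3 are listed both as negative regulators and as induced through STAT5. Il7r is listed both as a receptor chain and as repressed through STAT5. Of 6 ligand genes of the common gamma chain family, Il4, Il7, Il9, Il15 and Il21 lay below the filter and only Il2 was tested. Il2 read 4.42, 4.69 and 4.63 in Ikzf2-/- arrays, against 4.12, 4.18 and 4.11 in WT 4 to 6, so all Ikzf2-/- arrays were higher, as for 10.7% of tested genes. The change was 0.44 (SE 0.08, adjusted p = 0.0649 in limma) and did not pass, and all 6 signals were below the filter, which Il2 met only through its mean of 4.96 in WT 1 to 3. It passed without Ikzf2-/- 1 (0.52, adjusted p = 0.00869) and without Ikzf2-/- 2 (0.39, adjusted p = 0.0424), but not without Ikzf2-/- 3 (0.42, adjusted p = 0.147). The fit without Ikzf2-/- 1 called 409 genes, against 7 with all arrays. In dKO cells Il2 read 4.93, 4.91 and 4.90, against 4.90, 5.07 and 4.90 in WT 1 to 3, a change of -0.05 (adjusted p = 1).

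Of 5 other chains that pair with Il2rg or Il2rb, 0 passed and 5 did not in each comparison. Il4ra, the interleukin-4 receptor chain, read 9.18, 9.01 and 8.93 in dKO cells, against 9.19, 9.34 and 9.39 in WT 1 to 3. The dKO arrays were all lower, by 0.27 on average (log2 change -0.27, SE 0.09, adjusted p = 0.84), in a comparison where 4.22% of tested genes were lower without overlap. In Ikzf2-/- cells Il4ra read 8.76, 8.48 and 8.72, against 8.81, 8.89 and 8.84 in WT 4 to 6, also without overlap (-0.19, SE 0.09, adjusted p = 0.328; 5.5% of tested genes were lower without overlap). Il7r, the interleukin-7 receptor chain that Treg cells hold low, stood at 0.17 in Ikzf2-/-, 0.34 in dKO and 0.27 in Ikzf4-/- against WT (SE 0.23 for each), and Il15ra at -0.28, -0.08 and -0.18 (SE 0.13 for each).

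Other JAKs and STATs and the adaptors held no call. Of 6 tested genes among Jak2, Tyk2, Stat2, Stat3, Stat4 and Stat6, 0 passed in each of the 4 comparisons, and the list medians were 0.04 in Ikzf2-/-, 0.03 in dKO and -0.04 in Ikzf4-/- against WT. Jak2, the kinase of many other cytokine receptors, was higher without overlap in dKO cells, at 8.77, 9.04 and 8.74 against 8.72, 8.60 and 8.59 in WT 1 to 3 (0.21, SE 0.17, adjusted p = 1; 5.34% of tested genes were higher without overlap). Of 11 tested adaptor, PI3K and MAPK genes 0 passed. Grb2, the adaptor that links receptors to Ras, stood at 0.31 in Ikzf2-/- (SE 0.10, adjusted p = 0.159), and passed without Ikzf2-/- 2 (0.44, adjusted p = 0.0273), but not without Ikzf2-/- 1 (0.29, adjusted p = 0.168) or without Ikzf2-/- 3 (0.20, adjusted p = 0.34). Pik3r1, the regulatory subunit of PI3K, stood at -0.22 in Ikzf2-/- (SE 0.09, adjusted p = 0.245), -0.13 in dKO and 0.01 in Ikzf4-/- against WT.

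Negative regulators held no call either. Of 15 tested negative regulators 0 passed, with list medians of 0.04 in Ikzf2-/-, 0.02 in dKO and -0.03 in Ikzf4-/- against WT. Socs2, a feedback inhibitor induced through STAT5, read 7.91, 7.72 and 8.17 in Ikzf2-/- cells against 7.44, 7.20 and 7.18 in WT 4 to 6, and 8.63, 8.52 and 8.61 in dKO cells against 8.13, 8.16 and 7.85 in WT 1 to 3. Its changes were 0.66 (SE 0.12, adjusted p = 0.0649) and 0.54 (SE 0.12, adjusted p = 0.258), without overlap in either, where 10.7% and 5.34% of tested genes were higher without overlap. In Ikzf2-/- against WT it passed without Ikzf2-/- 1 (0.67, adjusted p = 0.0231), a fit that called 409 genes against 7 with all arrays. Socs2 also passed without Ikzf2-/- 2 (0.76, adjusted p = 0.0231), but not without Ikzf2-/- 3 (0.54, adjusted p = 0.134), the array with the highest B cell and neutrophil marker means. Socs3 stood at 0.28 in dKO against WT (SE 0.13) and 0.42 against Ikzf4-/- (SE 0.13), with an adjusted p of 1 in each. Its dKO arrays were all above the Ikzf4-/- arrays, as for 4.09% of tested genes. Cish, whose window is printed above, stood at 0.04 in Ikzf2-/-, 0.21 in dKO and 0.19 in Ikzf4-/- against WT (SE 0.17 for each), with overlapping arrays. Ptprc (CD45), a phosphatase, stood at -0.31 in Ikzf2-/- (SE 0.10, adjusted p = 0.168).

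Of 18 genes induced through STAT5, 0 passed in each comparison, and 11 of 18 changes were positive in Ikzf2-/-, 8 in dKO and 9 in Ikzf4-/- against WT. Over all tested genes, 54.5%, 51.8% and 52.9% of changes were positive in these comparisons. The medians of the list were 0.03, -0.02 and -0.03, beside 0.02, 0.004 and 0.006 over all tested genes. Ccnd2 (cyclin D2) read 10.49, 10.57 and 10.60 in Ikzf2-/- cells, against 10.29, 10.30 and 10.26 in WT 4 to 6, a change of 0.27 without overlap (SE 0.07, adjusted p = 0.103) that was 0.005 in dKO. Myc stood at 0.31 (SE 0.14) in Ikzf2-/- and -0.15 in dKO, and Gzmb (granzyme B) at 0.87 and 1.05 (SE 0.54 for each). Foxp3 stood at -0.08 in Ikzf2-/-, 0.08 in dKO and 0.03 in Ikzf4-/-, and the anti-apoptotic genes Bcl2 and Bcl2l1 at -0.13 and -0.19 in Ikzf2-/- and -0.14 and -0.27 in dKO. Bcl6, which STAT5 represses, stood at -0.24, -0.07 and -0.01 (SE 0.28 for each) in Ikzf2-/-, dKO and Ikzf4-/-.

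**Figure D4:**
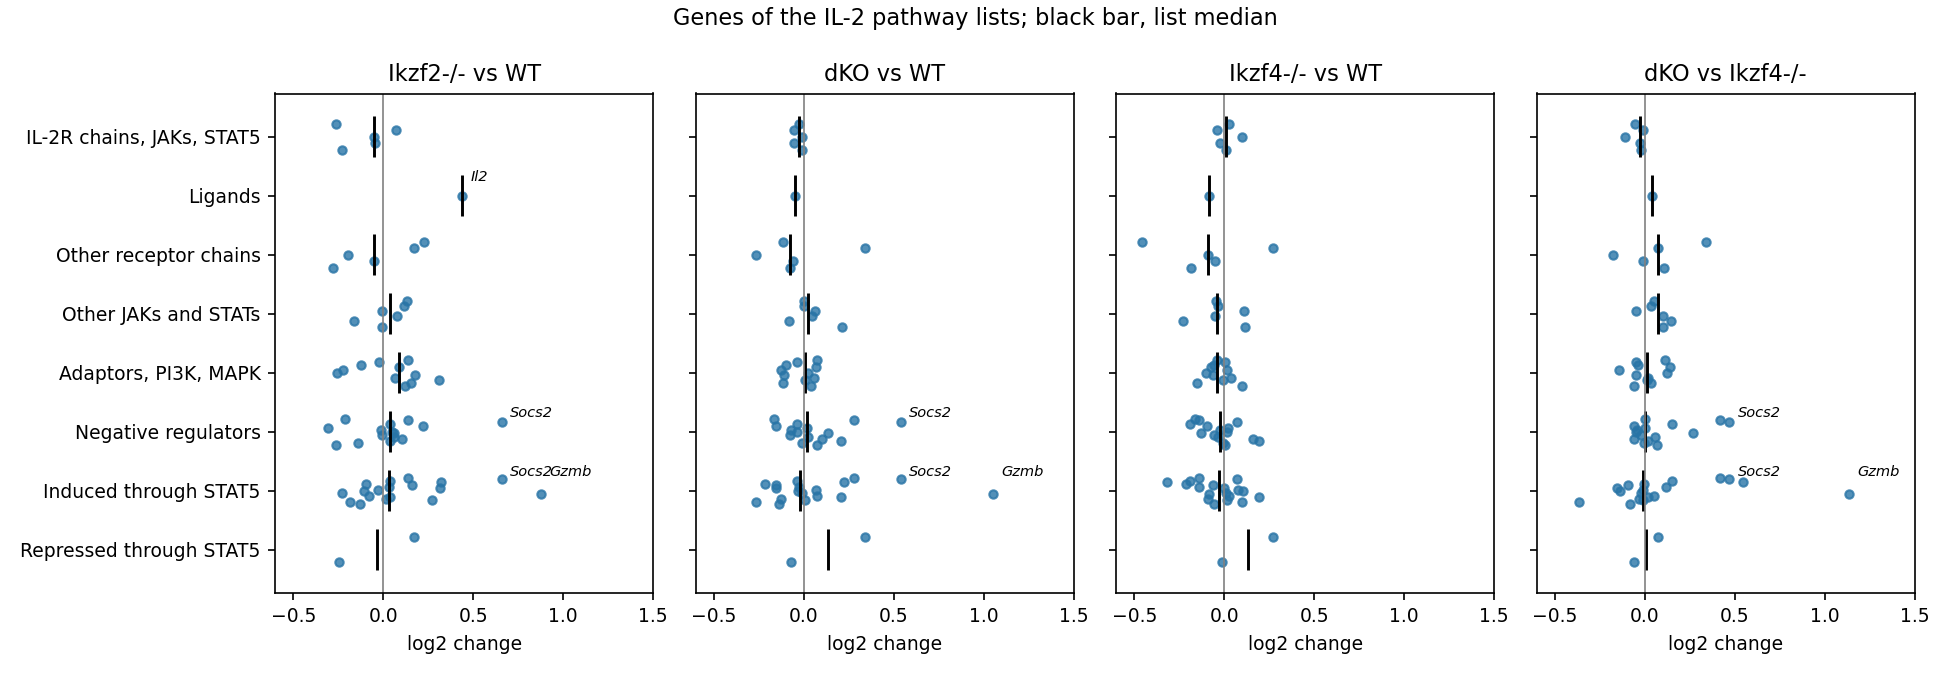
Log2 change (horizontal axis) of each tested gene in 8 lists of the IL-2 pathway, 1 row a list, in 4 comparisons; points are genes and the black bar is the list median. The members lie between -0.26 and 0.10, and Socs2 (0.66 in Ikzf2-/- and 0.54 in dKO against WT) and Gzmb (0.87 and 1.05) stand to the right, none of them past the test.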

How the data were processed

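The deposited table holds log2 signals of 35556 probe sets, made by the authors with Affymetrix Expression Console 1.3.1 and RMA (background subtraction, quantile normalization, summary of probes) per the submitters' processing notes; RMA compresses the changes of dim genes. Labelled cDNA was made from 15 ng of RNA, per the labels' protocols. Scanner files were not used here. The sets were taken from the WT numbering by the rule that chose the members, and pairs of arrays had equal values in 2286 probe sets on average within set 1, 34.4 within set 2 and 0.0741 across sets.

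Symbols came from the platform annotation, updated through Entrez identifiers to GRCm38.p6: 21789 probe sets had 1 symbol (21698 updated), 1621 had several and 12146 were not listed. Genes entered the test where at least 1 group mean lay above the median probe set mean (4.96). Limma 3.58.1 in R 4.3.3 (lmFit, eBayes) was fitted to 15 arrays with 5 group means (10 residual and 3.72 prior degrees of freedom), with Benjamini-Hochberg adjustment over 10964 genes at 0.05. The procedure was tested on simulated data. A change of sign where neither value passed was counted as no change of call. Alternatives covered normalization, filter, probe set choice, arrays in the fit, pooled WT, array weights, variance prior, replicate block, an Eif2s3y covariate and each array left out. The number of arrays limits the precision.

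Members, lists (14, 88 of 114 genes tested) and alternatives were chosen with earlier results of these data known. Named genes were the members, Ikzf2, Ikzf4 and Foxp3, called list genes, per list and comparison up to 3 genes of smallest p, and per member the 3 genes of highest r; further values of list genes (such as those of Cish, Bcl2 and Gzmb) were chosen after their values were seen. The lists of CD8 T, NK, neutrophil and macrophage and dendritic cell markers served as checks.

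Shared replicate numbers were checked in set 1, through deviations from group means of same-numbered arrays. These correlated at 0.138 to 0.303 between Ikzf4-/- and WT, 0.196 to 0.428 between dKO and Ikzf4-/-, and 0.045 to 0.173 between dKO and WT. Arrays of different numbers were not compared, so these values cannot tell whether the numbers pair the arrays. The main fit did not use the numbers.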

Additional observations from a re-analysis of the deposited data

How the results depend on the processing

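With 1 array left out, 0 to 1 members were called in Ikzf2-/- against WT (Il2ra without Ikzf2-/- 1, where 409 genes were called) and 0 in the other 5 comparisons. In the other alternatives run, 0 members were called, with one exception. With all 6 WT arrays pooled, 5 members and 3656 genes were called in the dKO change minus the Ikzf2-/- change, against 0 and 0: Il2ra 0.49, Jak1 0.36 and Stat5b 1.17 passed with their direction kept, and Il2rb at 0.70 and Stat5a at 1.15 passed with the opposite direction, as did the list gene Stat6 at 0.76. By its construction WT cancels there and arrays of different sets are compared directly. The same pooling moved members in other comparisons without a call (Stat5a 0.58 in dKO, Stat5b -0.73 in Ikzf2-/-, against WT). With the replicate number as a block in set 1 (paired fit), 0 members were called in each of 3 comparisons, and genes called were 0 in Ikzf4-/- against WT, 1 in dKO against WT, and 2 for dKO set against Ikzf4-/-. Genes called with all arrays, with 1 array left out and in the other alternatives were 7, 0 to 409 and 0 to 64 in Ikzf2-/- against WT; 7, 0 to 9 and 0 to 21 in dKO against WT; 3, 0 to 11 and 0 to 21 in dKO against Ikzf4-/-; 0, 0 to 1 and 0 in Ikzf4-/- against WT; 0, 0 to 2 and 0 to 3656 in the dKO change minus the Ikzf2-/- change; and 0, 0 to 4 and 0 to 1 in Helios loss without minus with Eos. Fits to 1 set alone and the block give no value for the comparisons that span both sets. The cause of these shifts, other than pooling, was not tested. The 3 arrays a group and the spread of the Ikzf2-/- arrays limit what set 2 can show.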

Other observations

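Markers of other cell types are given as values. In set 1 the mean log2 signal over 7 neutrophil markers was 5.17 to 5.79 in dKO and 4.40 to 5.08 in Ikzf4-/-, against 4.46 to 6.70 in WT 1 to 3. Over 8 macrophage and dendritic cell markers the range was 4.92 to 5.26 in Ikzf2-/-, against 4.67 to 4.90 in WT 4 to 6, and 4.47 to 4.70 in dKO and 4.24 to 4.56 in Ikzf4-/-, against 4.51 to 5.07 in WT 1 to 3. Over 5 NK cell markers it was 4.17 to 4.58 in Ikzf2-/-, against 4.15 to 4.33 in WT 4 to 6, and over the 2 CD8 T cell markers 5.09 to 6.00 against 5.21 to 5.40. In set 1 the NK range was 4.51 to 4.74 in dKO and 4.48 to 4.66 in Ikzf4-/-, against 4.37 to 4.57 in WT 1 to 3. The CD8 range there was 5.46 to 5.61, 5.64 to 5.91 and 5.74 to 6.08 in the same order. Only 3 of the 8 macrophage and dendritic cell markers and 1 of the 5 NK cell markers passed the filter, so these means hold mostly dim signals. Lyz2, a lysozyme gene of myeloid cells, stood at 1.52 in Ikzf2-/- and -2.13 in Ikzf4-/- against WT (SE 0.76 for each), and neither passed.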
